A study of Mus musculus with 2 samples.

Results

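The nuclear RNA polymerase subunits were described through their transcripts in mouse embryonic stem cells. The members were all protein-coding genes of the deposited table whose symbols begin with Polr1, Polr2 or Polr3 followed by a letter, which gave 28 of 15127 listed genes, 27 of which are described. The cells were pSM44, a female line from a cross of the 129 and castaneous strains, in which a tetracycline-inducible promoter drives Xist from its own locus on the 129 allele. Both libraries belonged to 1 group, grown in serum-free 2i/LIF medium with doxycycline at 2 μg/mL for 24 h. They were made from poly(A) RNA, and the table gave 1 column of counts with 10017978 counts in total, named for neither library. Each gene therefore had 1 value, no replicate error could be computed, and all intervals below are exact Poisson or conditional binomial 95% intervals that cover counting error only. No untreated cells were analysed here, so no value measures a response to doxycycline or Xist. The 7 stem cell markers checked, such as Pou5f1 and Nanog, ranged from 3123 to 47245 counts, whereas 4 of 6 fibroblast markers and 2 of 4 blood markers were not listed and the others had at most 66 counts.

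Mammalian nuclei divide transcription between 3 related multi-subunit enzymes. Pol I makes the large ribosomal RNA precursor, Pol II makes messenger RNA and many non-coding RNAs, and Pol III makes transfer RNA, the small 5S ribosomal RNA and other short RNAs. Each enzyme has its own catalytic pair of large subunits, a stalk and a zinc ribbon subunit, and Pol I and Pol III also carry built-in arms that resemble the separate Pol II initiation factors TFIIF and TFIIE. A common core of small subunits is present in all of them, and an alpha-like pair is used by both Pol I and Pol III. Proliferating stem cells are known for high ribosome and transfer RNA synthesis. Of the 27 members described, 3 belonged to Pol I only (Polr1a, Polr1b and Polr1e), 9 to Pol III only and 8 to Pol II only, one of which, Polr2m, encodes an associated protein and not a core subunit. The remaining 7 were shared, 5 of them by all the enzymes and 2 (Polr1c and Polr1d) by Pol I and Pol III.

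Start-site sequence was taken from RefSeq windows on GRCm38.p6, which run from 250 bases before to 50 bases after each annotated start and matched 22 of the 27 members. Polr2d, Polr2g, Polr2k, Polr3a and Polr3d had no window. Shown first are the paralogs Polr3g and Polr3gl, which encode alternative forms of the same Pol III subunit and lay at opposite ends of the Pol III values. All sequences are written 5′ to 3′ on the strand of the gene, and capitals mark matches on either strand to the GC box GGGCGG, the CCAAT box, the E-box CACGTG, the ETS core CCGGAA and the TATA box TATAAA.
Polr3g (chr13:81710964-81711263, minus strand): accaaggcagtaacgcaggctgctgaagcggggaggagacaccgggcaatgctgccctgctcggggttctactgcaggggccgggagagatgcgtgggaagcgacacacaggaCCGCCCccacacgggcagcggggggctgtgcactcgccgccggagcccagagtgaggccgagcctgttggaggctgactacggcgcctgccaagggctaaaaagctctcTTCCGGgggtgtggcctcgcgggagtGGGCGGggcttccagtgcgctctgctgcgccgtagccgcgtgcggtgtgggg
Polr3gl (chr3:96594132-96594431, minus strand): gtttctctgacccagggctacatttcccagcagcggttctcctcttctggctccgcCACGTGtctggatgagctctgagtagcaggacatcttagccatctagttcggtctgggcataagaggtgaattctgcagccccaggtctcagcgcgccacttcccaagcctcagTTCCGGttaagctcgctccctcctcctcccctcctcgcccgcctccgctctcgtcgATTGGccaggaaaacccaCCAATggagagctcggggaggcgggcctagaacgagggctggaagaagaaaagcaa
The Polr3g window held 26 CpG dinucleotides and 2 GC boxes, whereas the Polr3gl window held 16 CpG dinucleotides, 2 CCAAT boxes, 1 E-box and no GC box. Each of them held 1 ETS core. Shown next, for comparison of 1 structural position across the enzymes, are the genes of the second-largest subunit, which completes the active site.
Polr1b (chr2:129100746-129101045, plus strand): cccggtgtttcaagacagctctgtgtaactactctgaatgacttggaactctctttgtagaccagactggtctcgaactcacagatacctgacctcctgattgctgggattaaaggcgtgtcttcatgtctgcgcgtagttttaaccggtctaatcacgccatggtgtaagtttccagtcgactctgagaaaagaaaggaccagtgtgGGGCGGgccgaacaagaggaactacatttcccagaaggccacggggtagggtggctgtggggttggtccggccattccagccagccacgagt
Polr3b (chr10:84622048-84622347, plus strand): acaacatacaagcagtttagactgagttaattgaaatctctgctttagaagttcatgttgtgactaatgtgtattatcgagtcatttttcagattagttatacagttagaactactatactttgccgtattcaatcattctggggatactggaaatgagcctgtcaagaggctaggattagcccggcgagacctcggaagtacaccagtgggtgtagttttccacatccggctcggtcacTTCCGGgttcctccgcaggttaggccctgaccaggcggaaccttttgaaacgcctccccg
Polr2b (chr5:77310234-77310533, plus strand): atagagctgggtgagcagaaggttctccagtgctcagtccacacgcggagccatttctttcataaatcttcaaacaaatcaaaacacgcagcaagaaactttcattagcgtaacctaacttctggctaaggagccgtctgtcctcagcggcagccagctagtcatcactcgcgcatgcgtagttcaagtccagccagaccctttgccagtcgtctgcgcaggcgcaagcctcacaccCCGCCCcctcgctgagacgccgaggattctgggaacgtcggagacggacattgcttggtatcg
These windows held 13 CpG dinucleotides in Polr1b, 12 in Polr3b and 20 in Polr2b. Polr1b and Polr2b had 1 GC box each and Polr3b had 1 ETS core.

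Across the 24 windows of the members (Polr2h and Polr2m have 2 windows each), the median number of CpG dinucleotides was 22, with a range of 4 to 40, against 20 in 12386 windows of genes at a CPM (counts per 1000000 counts of the table) of 1 or more and 7 in all 32851 windows. A GC box was found in 15 of the 24 windows (62.5%), against 63.1% of windows of genes at CPM 1 or more and 35.7% of all windows. The ETS core occurred in 11 of the 24 (45.8%), against 26.5% and 14.9%. The CCAAT box occurred in 7 (29.2%, against 37.9% and 37.4%) and the E-box in 4 (16.7%, against 10.1% and 7.15%). The windows with an E-box were those of Polr2h, Polr3c, Polr3e and Polr3gl. The TATA box was in 2 windows, those of Polr2a and Polr2c (8.33%, against 6.81% and 13.6%). A match is a description of these letters in these windows and not a binding site.

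Nearly all the subunit genes lay above the median listed gene per kb. At CPM 1 or more, which took 11 counts, there were 26 of the 27 members, against 80.1% of all listed genes. The same 26 were at CPM 10 or more, against 58.9% of listed genes, and the remaining member was Polr3gl with 10 counts, or 0.998 CPM, just under the threshold. The member nearest above it was Polr2k, with 184 counts. Together the members held 31978 counts, which was 0.319% of all counts (exact binomial 95% interval 0.316 to 0.323). Levels of different genes were compared as CPM per kb of exon, the count scaled by the total and by the summed length of all annotated exons in GENCODE M21. On that scale the median member was at 29.4 CPM per kb, and the median listed gene with a length was at 3.81. Of the 27 members, 25 lay above 6.35 CPM per kb, the median of genes at CPM 1 or more, against 40.2% of listed genes with a length. The exceptions were Polr3f and Polr3gl, both of Pol III. For Polr3f this rests on the length chosen. Per kb of coding sequence it was at 22.1, above the median of 19.8 of genes at CPM 1 or more, whereas Polr3a, at 16.3, was below.

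**Figure D1:**
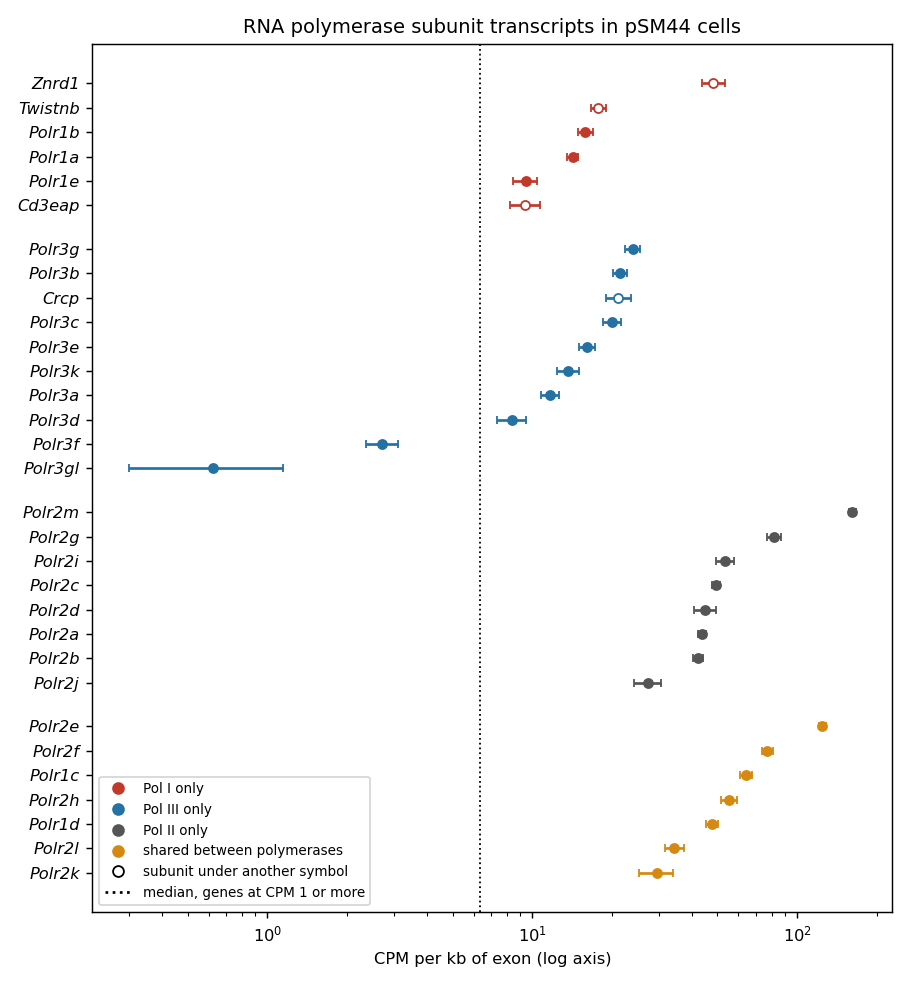
Level of each subunit transcript in CPM per kb of exon on a log axis, with exact Poisson 95% intervals as bars, grouped by the polymerase the subunit belongs to. Filled points are the 27 members, open points are subunits filed under other symbols, and the dotted line is the median of genes at CPM 1 or more (6.35). All Pol II-only and shared members lie at 27.3 or higher and all Pol I-only and Pol III-only members at 23.9 or lower. The open point of Znrd1, a Pol I subunit, lies at 48.3.

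Among the members, Pol I-only and Pol III-only transcripts were lower per kb of exon than Pol II-only and shared ones. The median was 14.2 CPM per kb for the 3 Pol I-only members and 13.6 for the 9 Pol III-only members, against 47.2 for the 8 Pol II-only members. The 7 shared members had a median of 55.2 CPM per kb. The Pol I median was 0.301 times, and the Pol III median 0.289 times, the Pol II median. On this scale the members of these groups did not overlap. However, Znrd1, a Pol I subunit filed under another symbol and so not a member, was at 48.3 CPM per kb. The 12 Pol I-only and Pol III-only members reached at most 23.9 CPM per kb (Polr3g), and the 15 Pol II-only and shared members began at 27.3 (Polr2j); 15.9% of listed genes with a length lay above Polr3g. Per kb of the longest transcript 14 of the 15 lay above Polr3g, with Polr2k just below it (30.6 against 30.8). Per kb of coding sequence 9 of the 15 lay above it. As plain CPM 6 of the 15 lay above Polr1a, the highest of the 12 on that scale. The separation thus rests on the length chosen and on which symbols the pattern matches. Gene span was not tried as a length. The ratio of medians had the same direction on every scale tried, from 0.193 to 0.616 for Pol I and from 0.231 to 0.453 for Pol III. These ratios include Polr2m, which is not a core subunit, in the Pol II median. Without Polr2m the Pol II median as CPM was 102, against 91.9 for Pol I and 67.7 for Pol III, so the gap was narrower. As these are genes of 1 measurement, no test between the groups was made.

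**Figure D2:**
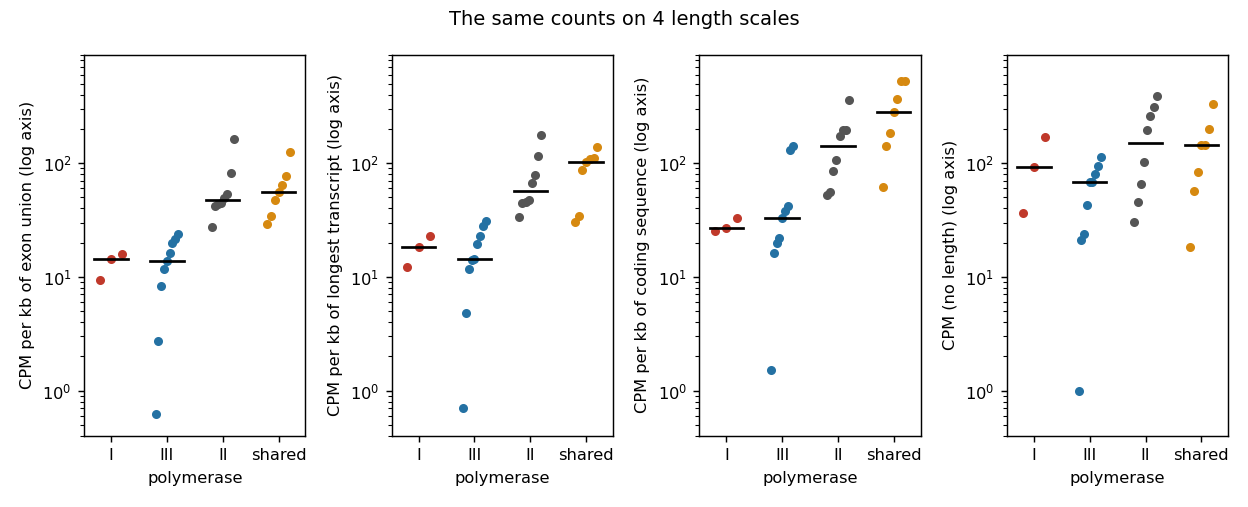
The same counts of the 27 members on 4 scales, which are CPM per kb of exon union, of the longest transcript and of the longest coding sequence, and CPM without length, each on a log axis. Points are genes, bars are group medians, and groups are Pol I only (I), Pol III only (III), Pol II only (II) and shared. Pol I and Pol III medians lie below the Pol II median in each panel, and the groups overlap most without a length, where the medians are 91.9, 67.7 and 149 CPM.

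The catalytic subunits showed the difference at matched positions. Polr1a, the largest Pol I subunit (chromosome 6, 71909053 to 71984935), had 1690 counts, or 14.2 CPM per kb (95% interval 13.5 to 14.9). Polr3a, the largest subunit of Pol III (chromosome 14, 24448696 to 24487058), had 681 counts, or 11.7 CPM per kb (10.8 to 12.6). Polr2a, whose protein carries the repeated C-terminal tail that is phosphorylated during messenger RNA synthesis (chromosome 11, 69733997 to 69758637), had 3103 counts, or 43.8 CPM per kb (42.3 to 45.4). The intervals of these genes did not overlap. Per kb Polr1a stood at 0.324 times Polr2a (conditional binomial 95% interval 0.305 to 0.344) and Polr3a at 0.266 times (0.245 to 0.289). Per kb of coding sequence the Polr1a ratio was 0.625; M21 gives Polr1a 11871 exonic bases and a longest coding sequence of 5151 bases.

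At the second-largest position the order of Pol I and Pol III was turned round per kb of exon. Polr1b had 921 counts, or 15.8 CPM per kb (14.8 to 16.9), and Polr3b had 1131 counts, or 21.5 CPM per kb (20.2 to 22.7). Polr2b had 1972 counts, or 42.2 CPM per kb (40.3 to 44.1), close to Polr2a. Polr1b was at 0.375 times Polr2b (0.347 to 0.406) and Polr3b at 0.509 times (0.472 to 0.548). Polr1a was 1.22 times Polr3a (1.11 to 1.33), and 2.01 times per kb of coding sequence and 2.48 times as CPM. In contrast, Polr1b was 0.738 times Polr3b (0.676 to 0.806), although per kb of the longest transcript this ratio was 1.01 (0.928 to 1.11).

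**Figure D3:**
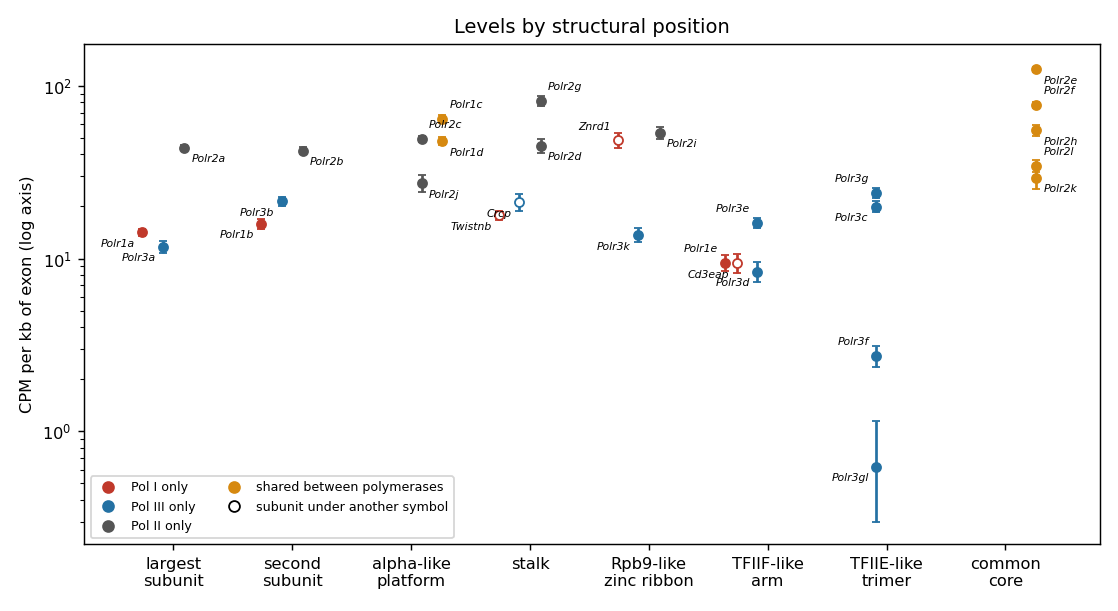
Level in CPM per kb of exon (log axis) by structural position, with Pol I-only, Pol III-only, Pol II-only and shared subunits in separate colours, exact Poisson 95% intervals as bars, and subunits filed under other symbols as open points. Polr2m, which has no core position, is not drawn. Pol II genes lie above the Pol I and Pol III genes at the largest, second and stalk positions, whereas the alpha-like pair shared by Pol I and Pol III (63.9 and 47.8) lies above its Pol II counterparts (49.4 and 27.3).

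The alpha-like platform, on which the enzymes assemble, went the other way. Polr1c and Polr1d, the pair used by Pol I and Pol III, had nearly equal counts of 1459 and 1458, or 63.9 and 47.8 CPM per kb. The corresponding Pol II pair, Polr2c and Polr2j, had 2600 and 302 counts, or 49.4 and 27.3 CPM per kb. Polr1c was thus 1.29 times Polr2c (1.21 to 1.38) and Polr1d was 1.75 times Polr2j (1.55 to 1.99). The direction for Polr1c turned per kb of coding sequence (0.712 times), as CPM (0.561 times) and with the whole count set on exon outside other genes (0.414 times). In M21 the gene Dok4 spans 68.0% of the exonic bases of Polr2c, and exons of Dok4 cover 18.1% of them. For Polr1d the ratio stayed above 1 on every scale tried, from 1.48 to 4.83, but gene span was not among them.

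The stalk, which contacts initiation factors and the emerging RNA, was lower in Pol I and Pol III than in Pol II per kb of exon. The Pol I stalk gene Twistnb, filed under another symbol, had 917 counts, or 17.8 CPM per kb. The Pol III stalk gene Crcp, also under another symbol, had 335 counts, or 21.1 CPM per kb. In Pol II, Polr2g had 1020 counts, or 81.6 CPM per kb, and its partner Polr2d had 457 counts, or 44.9; Polr2d has annotated pseudogenes, which makes its count uncertain. Twistnb was at 0.218 times Polr2g (0.199 to 0.238), at 0.469 times per kb of coding sequence, and at 0.899 times (0.821 to 0.984) as CPM. Crcp was at 0.469 times Polr2d (0.406 to 0.542) per kb of exon, and at 0.733 times as CPM.

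The zinc ribbon subunits take part in cleavage of the nascent RNA or in fidelity. Per kb of exon, that of Pol I was close to its Pol II counterpart, whereas that of Pol III was lower. Znrd1 of Pol I, also filed under another symbol, had 396 counts, or 48.3 CPM per kb (43.6 to 53.3), and Polr3k of Pol III had 427 counts, or 13.6 CPM per kb (12.4 to 15.0). Polr2i of Pol II had 650 counts, or 53.5 CPM per kb (49.5 to 57.8). Znrd1 stood at 0.902 times Polr2i, with an interval of 0.794 to 1.02 that includes 1, and between 0.609 and 0.672 times on the other scales. It was the one Pol I gene in the Pol II range per kb of exon. Polr3k stood at 0.255 times Polr2i (0.225 to 0.288), and at 0.760 times per kb of coding sequence. Adding Znrd1, Twistnb and Cd3eap moved the Pol I median to 15.02 CPM per kb.

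The TFIIF-like arms of Pol I and Pol III lay below every Pol II-only and shared member per kb of exon. Polr1e, the TFIIF-like arm of Pol I, had 368 counts, or 9.43 CPM per kb (8.49 to 10.4), and its partner Cd3eap had 234 counts, or 9.37. Their ratio per kb of exon was 1.01, with an interval of 0.851 to 1.19 that includes 1, but it was 1.30 (1.10 to 1.54) per kb of coding sequence and 1.57 (1.33 to 1.86) as CPM. The corresponding Pol III pair, Polr3e and Polr3d, which act in initiation and termination, had 811 and 239 counts, or 16.1 and 8.36 CPM per kb. Polr3e was 1.93 times Polr3d (1.67 to 2.24), and 3.39 times as CPM. Polr1e was 1.13 times Polr3d per kb of exon, with an interval of 0.956 to 1.33 that includes 1, against 1.27 (1.08 to 1.503) per kb of coding sequence and 1.54 (1.30 to 1.82) as CPM. Whether Polr1e differed from Cd3eap and from Polr3d thus rests on the length chosen. Polr3e was above Polr3d on the scales tried, from 1.64 to 3.39 times, but gene span was not among them.

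The TFIIE-like trimer of Pol III, which helps to open the promoter, held both the highest and the lowest Pol III-only members per kb. Polr3g (chromosome 13, 81673843 to 81711013) had 942 counts, or 23.9 CPM per kb (22.4 to 25.5), and Polr3c had 678 counts, or 19.99 (18.5 to 21.6). Polr3f had 210 counts, or 2.72 CPM per kb (2.36 to 3.11), with exons of 7710 bases in M21. Per kb of its coding sequence Polr3f was at 22.1, above Polr3a with 16.3. Polr3gl (chromosome 3, 96577872 to 96594181) had 10 counts, or 0.625 CPM per kb (0.300 to 1.15). Polr3g is known as the form of undifferentiated and dividing cells, and Polr3gl as the form found widely in differentiated tissues. Per kb Polr3g was 38.2 times Polr3gl (20.7 to 80.0).

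The low value of Polr3gl carried a limit from counting. In M21, 70.9% of its exonic bases lie under the span of Gm16253, a gene on the opposite strand with 1 count (chromosome 3, 96576984 to 96580663). Only 3.57% of them lie under exons of Gm16253. The sources used here do not say whether counting used strand, nor whether it counted exons or whole gene spans. Among annotated genes with more than 0.9 of their exonic bases under opposite-strand genes only, 10.3% were listed, against 70.0% of genes with at most 0.1. In the range of 0.5 to 0.9, where Polr3gl falls, 77.0% were listed, with a median of 1.29 CPM per kb against 4.26 at most 0.1. The part of the overlap in the value of Polr3gl was not tested. No counts by base were used, so the level over the 465 exonic bases of Polr3gl outside Gm16253 was not measured. If all 10 observed counts fell on them it would be 2.15 CPM per kb, the most those counts could give there. Polr3g would then be 11.1 times Polr3gl. Both are point values that leave out counting error. Per kb of coding sequence Polr3g was 92.1 times Polr3gl. The other members with more than 0.1 of their exons under other genes were Polr2c, Polr2i and Polr2j, and 23 members had at most 0.1.

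**Figure D4:**
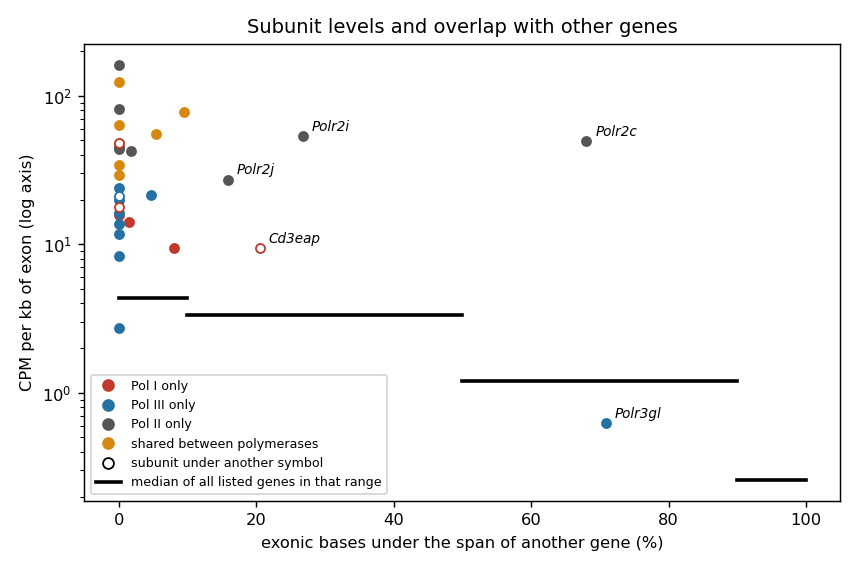
Level of each subunit gene in CPM per kb of exon (log axis) against the percent of its exon sequence that other annotated genes span, with filled points for members, open points for subunits filed under other symbols, and black bars for the median of all listed genes in each range of overlap. Polr3gl (70.9%) lies below the median of its range, whereas Polr2c (68.0%) lies far above it.

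Among Pol II genes, Polr2m stood apart from the core subunits. Polr2m, whose protein binds Pol II and makes it depend on Mediator, had 3925 counts, or 162 CPM per kb (157 to 167), the highest of the 27 members per kb of exon. Without it the 7 other Pol II-only members ran from 27.3 to 81.6 CPM per kb, with a median of 44.9. Polr2a, Polr2b and Polr2d lay within 42.2 to 44.9 CPM per kb, although as CPM they ran from 45.6 to 309.7, and the intervals of Polr2a and Polr2d overlapped.

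Genes of the common core differed in level although their proteins occur together in all the enzymes. Polr2e, which contacts DNA ahead of the active site, had 3331 counts, or 125 CPM per kb (120 to 129). Polr2f, which helps to hold the largest subunit in place, had 2007 counts, or 77.2. Polr2h had 834 counts, or 55.2 CPM per kb. The small zinc-binding subunits were the lowest of the core per kb of exon, although per kb of coding sequence Polr2l (282) was above Polr2h (185). Polr2l had 568 counts, or 34.4 CPM per kb (31.6 to 37.3), and Polr2k had 184 counts, or 29.4 (25.3 to 34.0). Polr2k has an annotated processed pseudogene, so its count is uncertain. Per kb of exon the highest of the 5 was 4.23 times the lowest, against 8.79 times among the 8 Pol III-only members other than Polr3gl. Per kb of coding sequence these spans were 8.53 and 8.62 times, and as CPM 18.1 and 5.39 times, so their order rests on the length.

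In the order of the 27 members per kb, 17 of the 26 neighbouring pairs had overlapping counting intervals and 9 did not. Level and length were compared in the members as a description across genes, which share 1 library total and are not independent replicates. The Spearman correlation of CPM per kb with exon length was -0.444 over the 27 members, and -0.290 over 11983 genes at CPM 1 or more. CPM per kb is divided by that same length, which by itself lowers this correlation. With plain CPM, the correlation with exon length was 0.314 over the members and 0.0998 over the 11983 genes. The members lay on 17 chromosomes, none on the X chromosome, with at most 3 on any one.

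**Figure D5:**
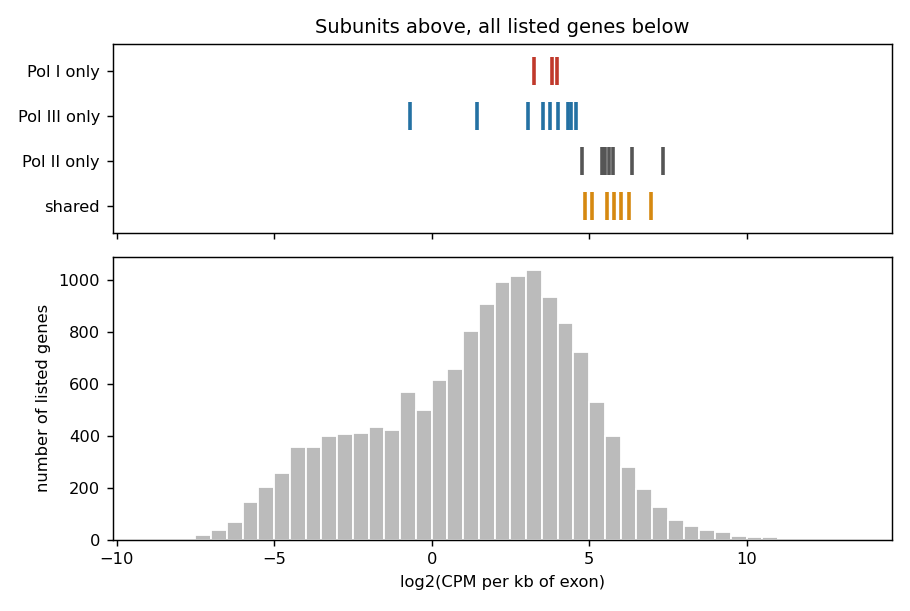
Distribution of log2(CPM per kb of exon). The upper panel marks each of the 27 members by group, and the lower panel is a histogram of 14896 listed genes with a length. The Pol II-only and shared members lie in the upper part of the distribution, and 15.9% of genes lie above Polr3g, the highest Pol III-only member.

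The listed factors of Pol I and Pol III, which include initiation factors but also the repressor Maf1, were all at CPM 1 or more. Of the Pol I factors, 7 of 7 reached it, against 80.1% of listed genes, with a median of 10.5 CPM per kb. Rrn3, which binds Pol I and makes it competent to initiate, had 3568 counts, or 82.5 CPM per kb, above every Pol I-only member. Ubtf, the ribosomal DNA-binding factor, had 2398 counts, or 36.5 CPM per kb, and the lowest was Taf1a, a subunit of the promoter selectivity factor, with 77 counts, or 3.19. Of the Pol III factors, 16 of 16 reached CPM 1, against the same 80.1%, with a median of 9.14 CPM per kb. The highest were Snapc2, a subunit of the complex that binds small nuclear RNA promoters, at 37.8 CPM per kb and Maf1, the repressor of Pol III, at 25.2. The lowest was Gtf3c2, a subunit of TFIIIC, with 12 counts, or 0.182 CPM per kb. Nearly all of its exonic bases (96.5%) lie under the gene Gm29609, and 38.9% lie under exons of that gene. The part of this overlap in the value of Gtf3c2 was not tested.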

How the data were processed

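The 2 poly(A) RNA libraries formed 1 group. The authors deposited raw counts per protein-coding gene symbol, at least 1 count each, in 1 column that names the line and treatment but no library. Per the submitters' processing notes, the GRCm38.p6 build was used with Subread 1.6.4 (featureCounts), Trimmomatic 0.38, SAMtools and HISAT2. The sources used here do not give the annotation release, strand setting, counted feature or pooling of libraries. Rows were sorted almost exactly by count over gene span (rho 0.9999 across 14896 genes, against 0.921 for count per exon base). No level here was scaled by gene span, and orders of genes may differ on that scale. Whether reads in introns were counted was not tested.

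The total was 10017978 counts. Counts were scaled to CPM and divided by the union of exons from GENCODE M21 (GRCm38), which matched 14896 of 15127 symbols. Overlap was the share of exonic bases under the span of another gene. Intervals were exact Poisson, Clopper-Pearson and conditional binomial, at 95%. They were tested on simulated counts drawn with Poisson error, which cannot show error from library preparation, mapping or overlap. Intervals cover counting error only, as reads carried no stated molecular identifiers. No test between conditions was made, and genes were compared only by counting intervals of their ratios. The length outside other genes divided the count of the whole gene. Results for 1 member are not reported here, and it is left out of every value. All others were named, and of the factor lists the count, the 2 highest and the lowest per kb. Members and lists were chosen with earlier results of these data known. Other lengths, minimums, scalings and exclusions were tried. Sequences came from RefSeq promoter windows. Software was scipy 1.17.1, numpy 2.4.6, pandas 2.3.3, matplotlib 3.10.9 and Python 3.11.15.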

Additional observations from a re-analysis of the deposited data

How the results depend on the processing

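No paired analysis was possible because the counts had 1 column and 1 group, and no library could be left out. Depth limits Polr3gl, whose 10 counts have an interval of 4.80 to 18.4. Of 70 values recomputed, 38 stayed within counting error (or, for the count of members, within 1.5 times) and 32 moved. This split does not measure robustness, because part of it was fixed in advance. Ratios do not depend on the total, and no Pol II-only or shared subunit was among the added symbols. Medians as CPM are in another unit than medians per kb, so they were bound to move. Among all 70 values, 30 were of the 5 log2 ratios named here, and all 30 kept their sign. Some of the 30 could not change sign. A changed total cancels in a ratio, and log2(CPM per kb + 1) keeps the order of any pair of genes. Only the changes of length could turn a ratio. Among other ratios, Polr1c over Polr2c turned direction, with 0.712 per kb of coding sequence against 1.29 per kb of exon, and Polr1b over Polr3b was 1.01 per kb of the longest transcript. The number of members at CPM 1 or more stayed within 1.5 times under every minimum tried. No member was unlisted, so counting unlisted members as 0 changed nothing. Medians are given as Pol I only, Pol III only, Pol II only and shared. Per kb of the longest transcript they were 18.3, 14.5, 57.2 and 102, per kb of coding sequence 27.0, 33.2, 140.1 and 282, and as CPM 91.9, 67.7, 149 and 146. Scaling without the 20 highest genes gave 15.4 for Pol I, 51.1 for Pol II and 59.7 for shared members. Adding subunits under other symbols gave 15.02 for Pol I. Alternatives chosen after seeing the data gave 59.0 for Pol II per kb of exon outside other genes and 59.6 for shared members without Polr2k. The log2 ratio of Polr3g over Polr3gl, 5.26 per kb of exon, was 6.52 per kb of coding sequence, 6.56 as CPM, 3.48 per kb of exon outside other genes and 3.94 as log2(CPM per kb + 1). The log2 ratio of Polr1a over Polr2a, -1.62 per kb of exon, was -1.33 per kb of the longest transcript, -0.68 per kb of coding sequence and -0.88 as CPM. For Polr3a over Polr2a these were -1.71, -1.68 and -2.19, and for Polr1b over Polr2b -1.05, -1.05 and -1.10. For Polr3b over Polr2b they were -0.75 per kb of coding sequence and -0.80 as CPM.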

Other observations

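Genes for assembly and nuclear import of the polymerases were measured as well. At CPM 1 or more there were 11 of 11, against 80.1% of all listed genes, with a median of 24.8 CPM per kb. The highest were Ruvbl2 and Ruvbl1, ATPases of a chaperone complex that helps to build large complexes, at 78.7 and 74.0 CPM per kb. The lowest was Rpap2, a phosphatase of the Pol II tail that also acts in import, with 178 counts, or 4.30 CPM per kb. The prefoldin-like gene Uri1 had 1370 counts, or 37.2 CPM per kb. Among the GPN-loop GTPases, which take Pol II to the nucleus, Gpn3 was at 47.0 CPM per kb, Gpn2 at 29.8 and Gpn1 at 6.12. Polrmt, the single-subunit polymerase of mitochondria, had 457 counts, or 9.74 CPM per kb (95% Poisson interval 8.86 to 10.7), within the range of the Pol I-only and Pol III-only members.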
